A study of Mus musculus with 3 samples.

Results

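Matrix proteases and their inhibitors were followed through the development of pressure-overload heart failure in the non-cardiomyocytes (non-CMs) of the mouse heart. The genes were all those whose symbol is Mmp, Adamts, Adamtsl or Timp followed by a number and that had at least 20 unique molecular identifiers (UMIs, 1 per captured RNA molecule) over the 3 count matrices. Of 27998 genes, 51 had such a symbol and 36 passed the minimum, with 24 to 12648 UMIs each. They comprise 4 Timp, 13 Mmp, 14 Adamts and 5 Adamtsl genes. The remaining 15 had at most 13 UMIs, 7 of them none, so the genes nearest the minimum were Mmp28 with 13 UMIs on the outer side and Adamts6 and Adamts17 with 24 UMIs each on the inner side. The rule used no difference between cells or phases.

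Non-CMs were isolated by collagenase digestion and Percoll separation from the ventricles of wild-type male C57BL/6J JCL mice operated at 8 weeks of age and measured by droplet-based single-cell RNA-sequencing of the 3′ ends of transcripts. The healthy library was made from hearts at 0 weeks of transverse aortic constriction (TAC, a ligature on the aortic arch), the adaptive hypertrophy library at 2 weeks of TAC and the heart failure library at 12 weeks. Each phase was 1 library, so phase and library cannot be told apart, and differences between phases were not tested. The age of the mice also rises with the weeks after surgery, and no library of sham-operated mice was included. Phase and age therefore cannot be told apart either. The weeks come from the methods of the study, and the number of hearts pooled in a library was not given in the sources used here.

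Matrix metalloproteinases (MMPs) are zinc enzymes that cleave collagens, gelatin, proteoglycans and other extracellular proteins, either after secretion or, for the membrane-type MMPs, at the cell surface. ADAMTS proteases are secreted and bind the matrix, where one branch cuts versican and other hyalectans, another trims the N-propeptide of fibrillar procollagens and others act near fibrillin microfibrils. ADAMTS-like proteins lack the catalytic domain. Tissue inhibitors of metalloproteinases (TIMPs) block the active site of MMPs, and TIMP3 also inhibits several ADAMTS proteases. In the pressure-overloaded heart this system takes part in the turnover of the interstitial collagen network.

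The 3 libraries held 3892, 2231 and 792 cells with at least 200 genes at 0, 2 and 12 weeks, with 12287823, 4465929 and 1712728 UMIs and medians of 2589, 1495 and 1434 UMIs per cell. Cells were assigned by marker lists to endothelial cells (ECs; 1085, 1772 and 306 cells), fibroblasts (FBs; 1231, 99 and 193 cells), mural cells (253, 48 and 32 cells), blood cells (937, 192 and 165 cells) and neural cells (35, 18 and 12 cells), and these names stand for the marker gates. A total of 537 of 6915 cells stayed unassigned. The libraries shared at most 5 cell barcodes. Cells with over 10% mitochondrial UMIs made up 5.04%, 9.32% and 17.2% of the libraries, and in FBs the median mitochondrial share was 2.62%, 7.64% and 4.72%. Although the study describes the cells as non-CMs, 44.1% of the ECs had a UMI of at least 1 of 6 cardiomyocyte markers. The summed level of these markers in ECs was 650, 505 and 171 CPM at 0, 2 and 12 weeks. CPM stands for the summed UMIs of a gene or list over all UMIs of the class, scaled to 1000000, and bracketed ranges after them are 95% intervals that cover counting error only.

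A run of 4 of the 36 genes on chromosome 9 is shown first, since neighbours in one run were used by different cells. The run spans chr9:7272514-7568485 (mm10, 296 kb, GENCODE M21) and holds 6 protein-coding genes, in order Mmp13, Mmp12, Mmp1b, Mmp3, Mmp10 and Mmp8. Mmp1b and Mmp10 had 0 UMIs. Mmp13, Mmp12 and Mmp8 were highest in blood cells in all 3 libraries, while Mmp3, 76.3 kb from Mmp12 and 102 kb from Mmp8, was highest in FBs in all 3. The AP-1 element, a binding sequence of the Fos and Jun factors known from MMP promoters, was searched as the letters TGANTCA on both strands in the 250 bases before each transcription start of RefSeq (GRCm38.p6). It was present in 2217 of 32851 windows (6.75%). Windows were found for 22 of the 36 genes, and 3 of these held the letters, all from this run. Their 100 bases before the start are printed 5′ to 3′ on the plus strand, with the matching letters in capitals.
Mmp13, chr9:7272414-7272513: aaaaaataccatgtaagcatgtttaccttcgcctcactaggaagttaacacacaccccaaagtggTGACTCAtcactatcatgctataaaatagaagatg
Mmp12, chr9:7347274-7347373: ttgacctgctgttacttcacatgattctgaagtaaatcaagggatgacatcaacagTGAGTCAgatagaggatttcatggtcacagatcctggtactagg
Mmp3, chr9:7445722-7445821: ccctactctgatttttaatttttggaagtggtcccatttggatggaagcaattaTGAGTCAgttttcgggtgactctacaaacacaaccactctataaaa
The letters stand 35 to 29 bases before the start in Mmp13, 44 to 38 in Mmp12 (at 1 of its RefSeq starts) and 46 to 40 in Mmp3. A match describes the sequence only, and occupancy was not measured. Mmp8 is described with the blood cells.

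The first comparison was between cell classes, and the summed level was highest in FBs. Summed over the 36 genes, FBs held 4625 CPM (4559 to 4692) at 0 weeks, 5550 CPM at 2 weeks and 4327 CPM at 12 weeks. Neural cells held 3013, 3362 and 2940 CPM and mural cells 2521, 3006 and 1515 CPM, whereas ECs held 2105, 1935 and 1912 CPM and blood cells 834, 494 and 551 CPM. By gene, 15 were highest in FBs over the 3 libraries together (14 of them in every library), 6 in mural cells (5), 5 in blood cells (4), 2 in ECs (2) and 8 in neural cells (1). With 65 cells, the neural class had few UMIs of most genes. UMIs were then summed per class and library, and each class was compared with the mean of the other 4 across the 15 sums with edgeR's quasi-likelihood test with Benjamini-Hochberg adjustment over all genes. A gene was called at an adjusted p of at most 0.05 and at least 2-fold. Of the 36 genes, 21 passed the filter on low counts, which favours genes that are high in some class. Of the 21, 14 were called in FBs, where 15.1% of 7634 genes were called, 6 in ECs (15.4% of all genes), 5 in mural cells (15.3%), 1 in blood cells (18.7%) and 4 in neural cells (6.22%). The 3 sums of a class come from 3 libraries of different phases, so the p-values measure the spread between these libraries.

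**Figure D1:**
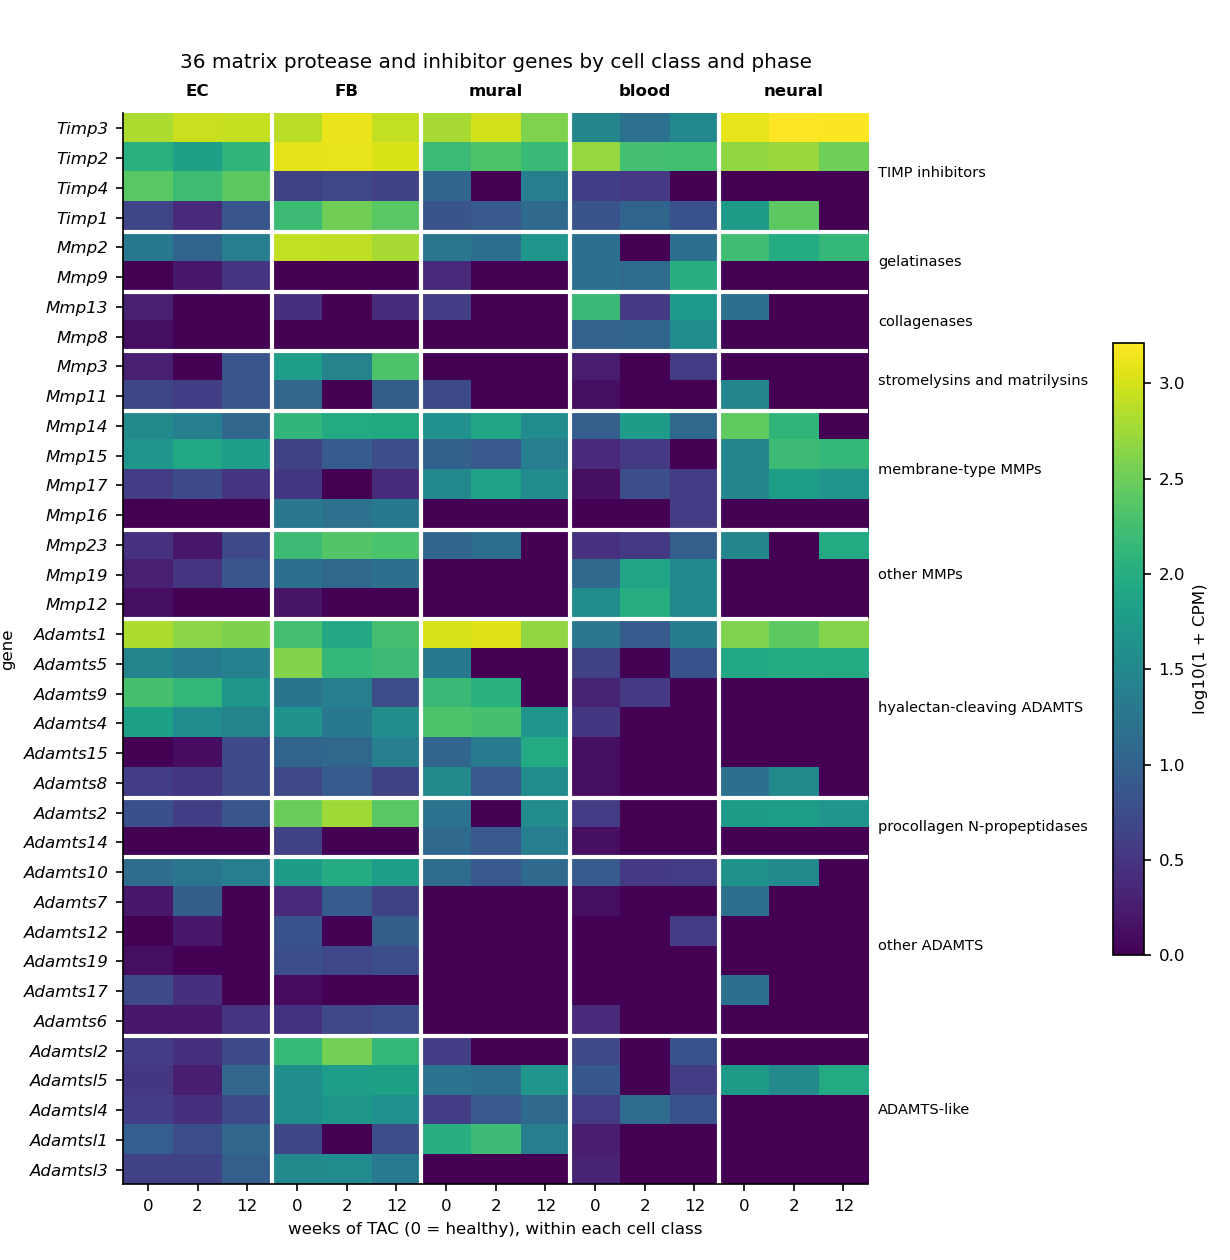
Heat map of the level of the 36 genes (rows, grouped by role) in each cell class at 0, 2 and 12 weeks of TAC (columns), coloured by log10(1 + CPM). The FB columns hold the peak of 15 genes, Timp4 is at 163 to 250 CPM in ECs and at most 22.9 CPM elsewhere, and Mmp12, Mmp13, Mmp8 and Mmp9 are seen mainly in blood cells.

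Of the 4 TIMPs, Timp1 and Timp2 were highest in FBs, Timp3 in neural cells and Timp4 in ECs, each in all 3 libraries. Timp1, a secreted inhibitor that is inducible in many injured tissues, was at 158, 329 and 244 CPM in FBs at 0, 2 and 12 weeks and at most 11.5 CPM in ECs, mural cells and blood cells. Its level in FBs exceeded the mean of the other classes by 4.34 ± 0.27 on the log2 scale (SE, adjusted p = 4.38e-13, edgeR). Of its UMIs in assigned cells 879 of 939 were in FBs, so it passed the filter on low counts through FBs. The FB call is no independent support. In neural cells Timp1 was at 56.1, 251 and 0 CPM, from 4, 8 and 0 UMIs, and it was called there as well (2.24 ± 0.64, adjusted p = 0.0152, edgeR), but not without the adaptive hypertrophy library (adjusted p = 0.524, edgeR). Timp2, the inhibitor that also bridges MMP14 and pro-MMP2 at the cell surface, stood at 1194, 1291 and 1073 CPM in FBs (log2 difference 2.53 ± 0.22, adjusted p = 3.04e-10, edgeR). Healthy blood cells held 501 CPM of Timp2, 42.0% of the FB level, whereas 10 FB genes outside the gate summed to 2.74% of their FB level in the same cells. In neural cells these 10 genes summed to 24.3%, 33.8% and 36.7% of their FB level at 0, 2 and 12 weeks. Their medians by gene were 4.12%, 12.9% and 5.74%. The part of FB RNA in the neural values given here was not tested.

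Timp3, the matrix-bound inhibitor, was abundant in each class except blood cells, with 754, 1299 and 834 CPM in FBs, 659, 894 and 847 CPM in ECs, 619, 972 and 390 CPM in mural cells and 1247, 1634 and 1562 CPM in neural cells. Blood cells had 14.8 to 30.3 CPM. It was called in FBs (1.34 ± 0.19, adjusted p = 2.03e-06), neural cells (1.49 ± 0.21, adjusted p = 7.02e-06) and ECs (1.00 ± 0.19, adjusted p = 1.16e-04, all edgeR), and the EC call was at the 2-fold limit and was lost under 6 of 13 alternatives, among them DESeq2, the gate with the markers named in the study's methods and leaving out the heart failure library (log2 difference 0.84). The FB and neural calls of Timp3 were each lost with the study's markers alone. Timp4, an inhibitor long associated with the heart, was highest in ECs, with 245, 163 and 250 CPM there and at most 22.9 CPM in any other class and phase (adjusted p = 1.56e-14, edgeR). Of its UMIs in assigned cells 1456 of 1490 were in ECs, so it passed the filter on low counts through ECs. Its call there is no independent support.

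Within ECs, Timp4 and Timp3 were highest in different vessel groups. Over the 3 libraries Timp4 was at 224 CPM (213 to 236) in 2864 capillary-like cells, 55.5 CPM (34.3 to 84.8) in 167 arterial-like cells and 34.9 CPM (11.3 to 81.5) in 63 venous-like cells. The arterial-like level differed by phase, at 24.3, 36.6 and 132 CPM from 3, 6 and 12 UMIs (5.43-fold higher at 12 weeks than in the healthy library, 1.47 to 30.0), and was 31.3 CPM (14.3 to 59.4) without the heart failure library. Arterial-like cells were 4.61%, 4.35% and 13.1% of ECs. The capillary-like level was higher at each phase, at 274, 172 and 303 CPM. No Timp4 UMI was found in 41 lymphatic-like or 24 endocardial-like cells, where 3 UMIs would have given 28.1 and 39.5 CPM. Timp3 had the other order, with 684 CPM (664 to 705) in capillary-like cells and 2153 CPM (2008 to 2306) in arterial-like cells. Lymphatic-like cells also held 2031 CPM of Timp3 (1770 to 2320), together with 899 CPM of Timp2, against 53.1 CPM of Timp2 in capillary-like cells. These groups share libraries and are cells of the same hearts, and the differences were not tested.

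Among the MMPs, the FBs held most of the gelatinase and stromelysin RNA. Mmp2, which encodes gelatinase A, was at 819, 803 and 620 CPM in FBs and at 19.1, 9.71 and 22.9 CPM in ECs (log2 difference of FBs from the mean of the other classes 4.89 ± 0.23, adjusted p = 3.24e-15, edgeR). Mmp23, a membrane-anchored MMP that is released by its own cleavage, was at 158, 227 and 202 CPM in FBs (4.86 ± 0.28, adjusted p = 6.99e-14, edgeR). Of its UMIs in assigned cells 824 of 856 were in FBs, and its FB call is not taken as independent support. Mmp3, which encodes stromelysin-1, was at 60.5, 26.5 and 204 CPM in FBs and at most 6.24 CPM in every other class. Of its UMIs in assigned cells 379 of 388 were in FBs, so it passed the filter on low counts through FBs and its call there is no independent support, and without the healthy library it did not pass. In healthy ECs Mmp2, Mmp23 and Timp1 were at 2.33%, 1.19% and 2.37% of their FB level, against 2.64% for the sum of the 10 FB genes outside the gate. The part of FB RNA in these EC values was not tested.

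The membrane-type MMPs were spread over several classes. Mmp14, the activator of pro-MMP2, was at 130, 90.9 and 87.7 CPM in FBs, 32.8, 23.2 and 10.4 CPM in ECs and 41.8, 74.8 and 34.4 CPM in mural cells. In neural cells it was at 266, 126 and 0 CPM from 19, 4 and 0 UMIs, above FBs at 0 and 2 weeks. Mmp14 was called in FBs (1.40 ± 0.32, adjusted p = 1.56e-03, edgeR). Mmp15 was at 46.9, 80.3 and 62.4 CPM in ECs, which held 91.5% of its assigned UMIs (2.65 ± 0.27, adjusted p = 5.86e-09, edgeR). Neural cells had 28.0, 157 and 138 CPM from 2, 5 and 3 UMIs, above ECs at 2 and 12 weeks. The neural call (adjusted p = 2.14e-03, edgeR) was lost under 3 of 13 alternatives, among them leaving out the adaptive hypertrophy library (adjusted p = 0.114, edgeR). Mmp17, a lipid-anchored MMP, was at 30.3, 68.0 and 34.4 CPM in mural cells (3.26 ± 0.44, adjusted p = 1.23e-06, edgeR). Its neural call (adjusted p = 0.0426, edgeR) was lost without any 1 of the 3 libraries (adjusted p from 0.145 to 0.281, edgeR). Mmp16, with 97 UMIs, was at 15.1 to 19.1 CPM in FBs and 0 to 2.75 CPM elsewhere.

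The ADAMTS genes with the highest levels led in FBs, mural cells or ECs. Adamts2, a procollagen N-propeptidase, was at 307, 560 and 244 CPM in FBs, which held 96.4% of its assigned UMIs (5.28 ± 0.27, adjusted p = 1.16e-14, edgeR). Adamts5, a versican- and aggrecan-cleaving enzyme, was at 402, 136 and 158 CPM in FBs (89.8% of UMIs, 3.90 ± 0.25, adjusted p = 8.44e-13, edgeR). Its neighbour Adamts1, which lies 53.06 kb away on chromosome 16 and encodes another hyalectanase, peaked instead in mural cells, at 1032, 1122 and 482 CPM. Adamts1 was called in mural cells (2.78 ± 0.22, adjusted p = 9.36e-11) and ECs (1.56 ± 0.22, adjusted p = 1.73e-06, both edgeR), with 648, 453 and 381 CPM in the latter and 180, 87.1 and 183 CPM in FBs. With the markers named in the study's methods the EC calls of Adamts1 and Adamts4 were lost. The pair therefore differed in its leading class in all 3 libraries.

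Adamts9 and Adamts4, hyalectanases as well, were highest in ECs and in mural cells, respectively, in all 3 libraries. Adamts9 was at 191, 133 and 49.9 CPM in ECs and 150, 109 and 0 CPM in mural cells (adjusted p = 2.41e-10 and 4.16e-08, edgeR). FBs had 16.6, 22.7 and 4.78 CPM of it. Adamts4 was at 206, 190 and 45.9 CPM in mural cells and 66.3, 35.6 and 27.0 CPM in ECs (adjusted p = 1.57e-09 and 1.57e-03, edgeR). Of its assigned UMIs, 47.1% were in ECs, 28.3% in FBs and 23.8% in mural cells. The FB call of Adamts4 (adjusted p = 0.0164, edgeR) was lost under 4 of 13 alternatives, among them leaving out the healthy library (0.0557) or the heart failure library (0.0523). Adamts8 was called in mural cells from 27 UMIs there, but the call was lost under 5 of 13 alternatives, namely gate margins of 1.2 and 3, the study's markers, cells of at most 10% mitochondrial UMIs and leaving out the healthy library, without which it did not pass the filter on low counts. Adamts15, 20.11 kb from Adamts8 on chromosome 9, was also highest in mural cells but was under the filter.

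The remaining ADAMTS and the ADAMTS-like genes were mostly FB genes at lower counts. Adamts10, a fibrillin-associated protease, was at 58.5, 94.7 and 62.2 CPM in FBs (2.25 ± 0.29, adjusted p = 5.55e-07, edgeR). Adamtsl2, a microfibril-binding protein mutated in geleophysic dysplasia, was at 142, 348 and 139 CPM in FBs, which held 95.9% of its assigned UMIs (adjusted p = 3.96e-13, edgeR). Adamtsl4 and Adamtsl5 were called in FBs (adjusted p = 1.62e-07 and 1.38e-05, edgeR), with 38.9 to 49.2 CPM and 39.4 to 65.4 CPM there. Of the assigned UMIs of Adamtsl2 and Adamtsl4, 750 of 782 and 196 of 231 were in FBs. These 2 genes passed the filter on low counts through FBs, and their calls there are no independent support. In neural cells Adamtsl5 was at 56.1, 31.4 and 91.9 CPM from 4, 1 and 2 UMIs, above FBs at 0 and 12 weeks. Adamtsl3 was at 20.7 to 34.1 CPM in FBs and was under the filter.

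Adamtsl1 had a different distribution from the other ADAMTS-like genes. It was at 104, 156 and 22.9 CPM in mural cells and at most 10.4 CPM in ECs, FBs and blood cells, and it was not among the genes tested. All 97 of its mural UMIs were in the 301 smooth-muscle-like cells (111 CPM, 90.2 to 136), and none was in the 32 pericyte-like cells, where 3 UMIs would have given 54.0 CPM. In ECs 19 of its UMIs were in 15 of the 41 lymphatic-like cells (178 CPM, 107 to 278), with an interval that overlaps that of smooth-muscle-like cells. Adamts9 was likewise at 136 CPM (113 to 163) in smooth-muscle-like and 18.0 CPM (0.456 to 100) in pericyte-like cells (72.8 CPM, 41.6 to 118, in the former when the healthy library was left out). The other 7 members with under 50 UMIs (Adamts6, Adamts7, Adamts12, Adamts14, Adamts17, Adamts19 and Mmp8) reached at most 35.8 CPM in ECs, FBs, mural cells and blood cells. Mmp11, with 84 UMIs, reached 10.7 CPM in FBs.

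The phases were then compared within FBs, where Timp1 and Adamtsl2 were at least 2-fold higher at 2 weeks, Adamts5 was lower at both phases and Mmp3 was higher at 12 weeks. A gene with at least 20 UMIs over a pair of phases was counted as different when its level was at least 2-fold higher or lower. At 2 weeks against healthy FBs 6 of 23 genes were different (2 higher and 4 lower) where 19.5% of 9889 genes were, and at 12 weeks 4 of 23 (2 higher and 2 lower) where 13.4% of 10124 genes were. The median log2 ratio of the 23 genes was 0.04 at 2 weeks and -0.00 at 12 weeks, and that of all genes compared was 0 and 0.02. The count of members is therefore near that of other genes, and the following describes which genes they were. The 99 FBs at 2 weeks held 264128 UMIs, against 4033694 in healthy FBs, and this limits the precision at 2 weeks.

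Adamts5 was lower at both phases. With 1620 UMIs in healthy FBs, 36 at 2 weeks and 99 at 12 weeks, its level was 2.95-fold lower at 2 weeks (2.12 to 4.22) and 2.54-fold lower at 12 weeks (2.08 to 3.15). After every cell was thinned to 1000 UMIs, 31.3%, 15.5% and 14.6% of FBs had an Adamts5 UMI (56.9%, 24.2% and 28.0% before thinning), and FBs were left out as too shallow in 0, 28 and 29 cases. In FB groups set by markers, Adamts5 was highest among healthy cells in the Cd248 Pi16 group (560 CPM), followed by the Cxcl14 Hsd11b1 group (390 CPM) and the Postn Thbs4 Cilp group (163 CPM). At 12 weeks these groups stood at 326, 140 and 42.9 CPM, 1.72-fold (1.29 to 2.33), 2.79-fold (1.97 to 4.07) and 3.81-fold (1.78 to 9.72) lower. At 12 weeks the lower level was thus present in each of the 3 groups, at different sizes whose difference was not tested. The Postn Thbs4 Cilp group, with the lowest healthy level of the 3, made up 12.2%, 42.4% and 16.1% of FBs. Its part in the lower Adamts5 level of all FBs at 2 weeks was not tested.

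Adamts1, which is next to Adamts5 in the genome, was 2.07-fold lower in FBs at 2 weeks (1.37 to 3.28) and at the healthy level at 12 weeks (ratio 1.02, 0.829 to 1.24). Adamts4 had 5 UMIs in FBs at 2 weeks and was 2.34-fold lower with an interval that reached 1 (0.986 to 7.31). Adamts9 had 3 UMIs at 12 weeks and was 3.47-fold lower (1.14 to 17.3). Adamts15 was 2.41-fold higher at 12 weeks (1.24 to 4.46), from 15 UMIs. Adamts2 was 1.83-fold higher at 2 weeks (1.53 to 2.17) and lower at 12 weeks (ratio 0.795, 0.667 to 0.941), under the 2-fold limit both times. The Adamts4 and Mmp3 differences at 2 weeks fell below 2-fold in thinned cells and with the study's markers, that of Adamts1 with a gate margin of 1.2, and the Adamts5 and Adamts15 differences at 12 weeks when levels were averaged over cells.

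Mmp3 had its highest level at 12 weeks. It was 3.37-fold higher there than in healthy FBs (2.70 to 4.20), with 128 UMIs in 39 of 193 cells against 244 UMIs in 74 of 1231 cells. At 2 weeks 7 UMIs were found, all of them in 2 cells, so the 2.28-fold lower level (1.09 to 5.74) rests on these. The 12-week level was higher in each of the 3 large FB groups, with 129 against 42.1 CPM in the Postn Thbs4 Cilp group (3.06-fold, 1.64 to 5.65), 84.7 against 13.9 CPM in the Cd248 Pi16 group (6.11-fold, 2.81 to 12.8) and 300 against 85.0 CPM in the Cxcl14 Hsd11b1 group (3.53-fold, 2.61 to 4.76). The share of thinned FBs with an Mmp3 UMI was 3.41%, 2.82% and 10.4% (6.01%, 2.02% and 20.2% before thinning). Mmp2 and Mmp14 did not share this, with 12-week ratios of 0.757 (0.680 to 0.841) and 0.675 (0.502 to 0.892).

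Timp1 was 2.08-fold higher at 2 weeks (1.64 to 2.60) and 1.54-fold higher at 12 weeks (1.28 to 1.84). Its RNA was uneven between cells, and the 2 highest cells held 116 of 639 UMIs in healthy FBs, 20 of 87 at 2 weeks and 61 of 153 at 12 weeks. Among healthy FBs, the Postn Thbs4 Cilp group had 330 CPM, the Cd248 Pi16 group 145 CPM and the Cxcl14 Hsd11b1 group 118 CPM. The first group, named for genes of activated FBs, made up 12.2% of FBs at 0 weeks, 42.4% at 2 weeks and 16.1% at 12 weeks. Within it Timp1 was at 368 CPM at 2 weeks (ratio 1.12, 0.797 to 1.53), whereas the ratio was 2.81 (1.63 to 4.55, 18 UMIs at 2 weeks) in the Cd248 Pi16 group and 1.77 (0.948 to 3.06, 14 UMIs) in the Cxcl14 Hsd11b1 group. The difference between groups was not tested. In cells thinned to 1000 UMIs the 2-week difference fell below 2-fold.

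Adamtsl2 was 2.46-fold higher in FBs at 2 weeks (1.95 to 3.07) and back at the healthy level at 12 weeks (ratio 0.980, 0.773 to 1.23). Within the Postn Thbs4 Cilp group the levels were 180 CPM at 0 weeks and 230 CPM at 2 weeks (ratio 1.28, 0.827 to 1.93). In the Cd248 Pi16 group they were 156 and 587 CPM (3.75, 2.40 to 5.63, 26 UMIs at 2 weeks), and in the Cxcl14 Hsd11b1 group 109 and 420 CPM (3.84, 2.47 to 5.76, 28 UMIs). The median mitochondrial share of the 19 Cd248 Pi16 cells at 2 weeks was 14.1%, against 2.50% in the healthy cells of that group, and its part in the difference was not tested. With cells of at most 10% mitochondrial UMIs, Adamtsl2 in FBs was higher by 1.00 on the log2 scale, just under 2-fold. Timp3 was 1.72-fold higher at 2 weeks (1.54 to 1.93), with 60 of its 343 UMIs in 2 cells, and Timp2 differed little (1.08, 0.966 to 1.21).

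**Figure D2:**
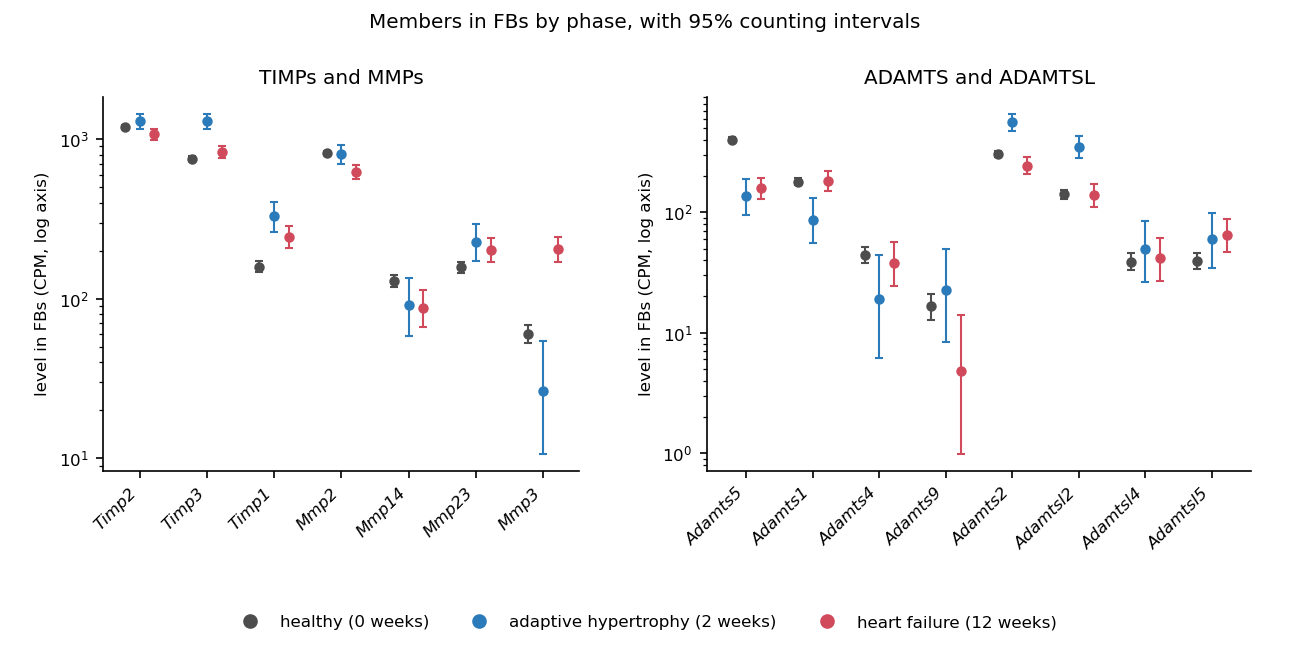
Level in FBs (CPM, log axis) of 15 of the genes (Timp, Mmp, Adamts and Adamtsl) at 0, 2 and 12 weeks of TAC, with 95% counting intervals. Adamts5 sits at 402 CPM in healthy FBs and at 136 and 158 CPM after TAC, Mmp3 reaches 204 CPM at 12 weeks, and Timp1 and Adamtsl2 peak at 2 weeks.

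The neighbouring steps of the pathway were read from 8 lists of other proteases, inhibitors and partners. In FBs at 2 weeks, 2 of 8 partners of ADAMTS and ADAMTSL proteins with enough UMIs were at least 2-fold higher and none was lower, where 9.88% of all genes compared were higher and 9.65% lower. Ltbp2, a microfibril-associated protein, was at 80.3 and 458 CPM at 0 and 2 weeks (5.70-fold, 4.59 to 7.05), and Ltbp3, which binds latent TGF-β, at 90.5 and 284 CPM (3.14-fold, 2.41 to 4.03). Of 7 cathepsin genes 2 were higher and 1 lower, led by the cathepsin inhibitor Cst3 (2970 and 7360 CPM, 2.48-fold, 2.36 to 2.60), with Ctsd 2.00-fold higher (1.71 to 2.33) and Ctss 2.23-fold lower on 1 UMI at 2 weeks. The 7 cell-surface regulators had no member past 2-fold in FBs at either phase.

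Other genes of the lists were lower in FBs, and at 12 weeks the shares over all genes were 6.98% higher and 6.45% lower. Pcsk6, a proprotein convertase, was at 413, 136 and 172 CPM in FBs at 0, 2 and 12 weeks, 3.03-fold and 2.40-fold lower, with 1 of 4 convertases lower at 2 weeks and, at 12 weeks, 1 lower and 1 higher (Pcsk7, 3.06-fold, 10 UMIs). Htra1, a secreted serine protease, was 3.10-fold lower at 2 weeks, and Wfdc1, a whey-acidic-protein inhibitor family member, 2.50-fold lower at 2 weeks and 2.47-fold lower at 12 weeks, the 2 lower of 9 genes in their list at 2 weeks. Pcolce2, a procollagen C-proteinase enhancer, was 2.03-fold lower at 2 weeks, 1 of 3 in its list. Adam15 was 2.15-fold higher at 2 weeks, 1 of 5 ADAM genes. At 12 weeks, Fbln1, a cofactor of ADAMTS1, was 2.03-fold higher (789 and 1601 CPM, 1.89 to 2.18) and Ltbp2 2.10-fold higher, 2 of 8 partners.

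In ECs Adamts9, Adamts4 and Mmp14 were at least 2-fold lower at 12 weeks. At 2 weeks 1 of 17 genes was at least 2-fold different (10.1% of 10362 genes), and at 12 weeks 3 of 12, all lower (16.6% of 9318 genes, with 7.54% lower). The median log2 ratio was -0.50 at 2 weeks and 0.13 at 12 weeks, and that of all genes 0.02 and 0.10. Adamts9 was 3.83-fold lower at 12 weeks (2.55 to 6.03), with 612 UMIs at 0 weeks and 24 at 12 weeks, after a ratio of 0.696 (0.615 to 0.787) at 2 weeks. Adamts4 was 2.45-fold lower at 12 weeks (1.40 to 4.68, 13 UMIs), and Adamts1 was lower at both phases without passing 2-fold (0.700, 0.655 to 0.748, and 0.588, 0.503 to 0.684). The hyalectanase Adamts5 had a ratio of 0.928 at 12 weeks (0.462 to 1.71), and Adamts8 and Adamts15 had too few UMIs in ECs to be compared. Mmp14 was 3.16-fold lower at 12 weeks (1.31 to 9.93, 5 UMIs). Summed over the 14 ADAMTS genes, ECs held 959, 675 and 522 CPM.

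The capillary-like share of ECs was 88.6%, 93.4% and 81.0%, so the comparison was repeated within it. Capillary-like Adamts9 was at 205, 136 and 61.6 CPM (3.33-fold lower at 12 weeks, 2.18 to 5.36), Adamts4 at 66.8, 35.7 and 19.6 CPM (3.41-fold, 1.62 to 8.59) and Adamts1 at 617, 412 and 266 CPM (2.32-fold, 1.89 to 2.88). In arterial-like cells, Adamts1 was at 1489, 1311 and 803 CPM (1.86-fold lower at 12 weeks, 1.41 to 2.47), and Adamts9 had 18 UMIs in 50 cells at 0 weeks and 0 in 40 cells at 12 weeks. The lower levels at 12 weeks were therefore present in both vessel groups for Adamts1 and Adamts9. Arterial-like Adamts4 was at 40.5 and 55.0 CPM at 0 and 12 weeks, from 5 UMIs each (ratio 1.36, 0.313 to 5.90). Mmp14 had 2 UMIs in arterial-like cells at each of these phases (ratio 1.36, 0.0985 to 18.7). The lower EC levels of these 2 genes were thus not seen there, on few UMIs and with intervals that include 1.

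Several low-level genes in ECs were lowest at 2 weeks, as were FB markers. The summed level of the 8 FB gate markers in ECs was 344, 63 and 433 CPM at 0, 2 and 12 weeks, all 8 detected at each phase. Timp2 in ECs was at 109, 65.0 and 127 CPM and Mmp2 at 19.1, 9.71 and 22.9 CPM, lowest at 2 weeks like these markers, whose part in the 2-week median was not tested. The same holds for Fbln1 (4.25-fold lower at 2 weeks and 3.12-fold higher at 12 weeks) and Pcolce2 (10.6-fold lower, 2 UMIs). Mmp15 went the other way, 1.71-fold higher at 2 weeks (1.40 to 2.10) and 1.33-fold at 12 weeks (0.867 to 1.98). Adamts7, a protease of cartilage oligomeric matrix protein, had 2 UMIs in healthy ECs, 27 UMIs in 26 of 1772 cells at 2 weeks (12.7-fold, 3.19 to 110) and 0 at 12 weeks.

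Among the lists, where 4.27% of all genes were higher and 5.86% lower, ECs at 2 weeks had 1 of 7 partners lower, the Fbln1 given above, and 1 higher, Papln, an ADAMTS-like extracellular protein (4.70-fold, 1.77 to 15.7), and 1 of 6 ADAM genes higher, Adam12, with an interval that included 1 (2.19-fold, 0.792 to 6.97). Lower genes were 2 of 5 cell-surface regulators, namely the endocytic receptor Lrp1 (5.49-fold) and the proteoglycan Sdc1 (2.03-fold), and 2 of 9 other secreted proteases and inhibitors, namely Htra3 (8.05-fold) and Serping1 (3.26-fold). The remaining lists each had 1 lower gene, which was Serpine2 of 5 plasminogen-system genes (2.95-fold), Ctss of 7 cathepsin genes (4.06-fold), Pcsk6 of 4 convertases (2.59-fold) and Pcolce2 of 3 procollagen-processing genes. The FB markers in ECs were lowest at 2 weeks too (63 CPM against 344 CPM at 0 weeks), and their part in these lower levels was not tested. At 12 weeks 9.06% of all genes were higher and 7.54% lower. Plaur, the urokinase receptor, was then 2.32-fold lower (62.9 and 27.0 CPM, ratio 0.430, 0.225 to 0.753), 1 of 4 in its list. Fbn1 (fibrillin-1) was 2.41-fold lower and Fbln1 higher among 6 partners, Spock2 and Wfdc1 were 3.46-fold and 3.44-fold higher, 2 of 9 in their list, and Pcolce2 was 3.01-fold lower on 1 UMI with an interval that included 1, 1 of 3 in its list.

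In mural cells Adamts1, Adamts9 and Adamts4 were at least 2-fold lower at 12 weeks. At 2 weeks 2 of 9 genes were at least 2-fold different (17% of 4751 genes) and at 12 weeks 4 of 9, all lower (22.6% of 4496 genes, with 14.3% lower), with median log2 ratios of 0.46 and -0.67 against 0.08 and 0 for all genes. Adamts1 was 2.14-fold lower at 12 weeks (1.57 to 3.00) and Adamts4 4.49-fold lower (1.72 to 16.7, 4 UMIs). Adamts9 had 104 UMIs in 253 healthy cells and 0 in 32 cells at 12 weeks, at least 4.36-fold lower when 3 UMIs are taken as the limit. Adamtsl1 was 4.52-fold lower (1.21 to 38.1, 2 UMIs). At 2 weeks Mmp17 was 2.25-fold higher (0.944 to 4.98) and Adamts8 4.88-fold lower on 1 UMI (0.792 to 201), both with intervals that include 1.

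Smooth-muscle-like cells made up 91.7%, 97.9% and 68.8% of mural cells. Within them Adamts1 was at 1056, 1127 and 532 CPM, 1.98-fold lower at 12 weeks (1.44 to 2.81), Adamts4 at 213, 191 and 27.3 CPM (7.80-fold, 2.12 to 65.1, 2 UMIs) and Adamts9 at 158, 109 and 0 CPM, the last in 22 cells. Adamtsl1 was 4.04-fold lower (1.08 to 34.0, 2 UMIs). The Adamts1 difference in mural cells fell below 2-fold under 4 of 10 alternative settings, and that of Adamts4 under none of 10. In thinned cells Adamts9, with 0 UMIs taken as 3, was under 2-fold, as was Adamtsl1 with the markers named in the study's methods. Early-response and heat-shock genes, which respond to tissue dissociation, were summed over 10 genes listed after the values had been seen. Their level was 24298, 19338 and 17017 CPM in ECs, highest in the healthy library, and 19262, 20821 and 18244 CPM in mural cells, highest at 2 weeks. Their part in the protease levels was not tested.

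**Figure D3:**
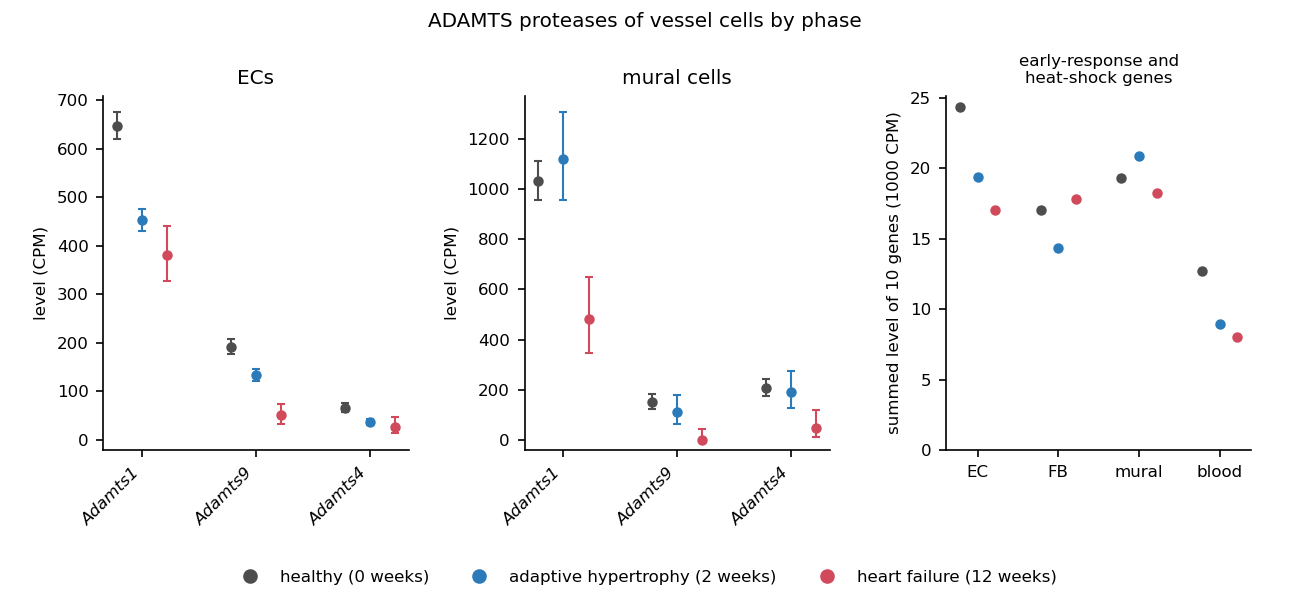
Level (CPM) of Adamts1, Adamts9 and Adamts4 in ECs (left) and mural cells (middle) at 0, 2 and 12 weeks of TAC with 95% counting intervals, and the summed level of 10 early-response and heat-shock genes in 4 classes (right, in 1000 CPM). Adamts9 is at 49.9 CPM in ECs and 0 CPM in mural cells at 12 weeks. The early-response sum of mural cells is at 19262 CPM at 0 weeks and 18244 CPM at 12 weeks.

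Blood cells had the largest share of genes past 2-fold, and the makeup of the class changed at the same time. At 2 weeks 7 of 12 genes were different, 3 higher and 4 lower (23.4% of 7828 genes), and at 12 weeks 6 of 11, 3 higher and 3 lower (25.6% of 7931 genes). The median log2 ratios were -0.58 and 0.11, against 0.00 and 0.09 for all genes. Macrophage-like cells were 89.0%, 58.3% and 36.4% of the class. Monocyte- or dendritic-like cells were 4.91%, 29.7% and 6.06%, and neutrophil-like cells numbered 3, 6 and 12. B-like cells numbered 31, 0 and 54.

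Macrophage-like cells held different MMP genes at 0 and 2 weeks. Mmp13, which encodes collagenase-3, had 391 UMIs in 148 of 834 healthy macrophage-like cells (165 CPM, 149 to 182) and 1 UMI in 112 cells at 2 weeks (4.57 CPM, 0.116 to 25.4), 36.1-fold lower with an interval from 6.45 to 1431. At 12 weeks it had 16 UMIs in 3 of 60 cells, 14 of them in 2 cells, which gave 124 CPM. The 2.77-fold lower level of the whole class at 12 weeks (1.75 to 4.65) was 1.33-fold within macrophage-like cells (0.810 to 2.35). Its chromosomal neighbour Mmp12, the macrophage elastase, had the opposite order, with 38.8 CPM at 0 weeks and 142 CPM at 2 weeks (3.64-fold, 2.34 to 5.53). At 12 weeks 11 Mmp12 UMIs were found in 2 cells. Mmp12 was the 1 gene called in blood cells between classes. Since blood cells held 148 of its 151 UMIs in assigned cells, it passed the filter on low counts through them and the call is no independent support. It was lost with DESeq2 and without the healthy library, and Mmp13 did not pass the filter.

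Other genes of macrophage-like cells were higher at 2 weeks. Mmp14 was at 9.71, 100.4 and 23.2 CPM (10.3-fold higher at 2 weeks, 5.50 to 19.4, 22 UMIs in 17 cells). Mmp19 was at 12.7, 105 and 77.5 CPM (8.29-fold, 4.60 to 14.8), although 9 of its 10 UMIs at 12 weeks were in 2 cells. The inhibitor Timp2 was lower, at 564, 265 and 333 CPM (2.13-fold, 1.64 to 2.82, and 1.69-fold, 1.25 to 2.35). In the whole blood class the lower Timp2 level was 2.82-fold and 2.89-fold. The share of thinned blood cells with a Timp2 UMI was 38.8%, 14.1% and 15.5%. Adamts10, with 20, 1 and 1 UMIs in blood cells, and Adamts1, with 3 UMIs at 2 weeks, passed 2-fold with intervals that include 1, and Adamts10 at 12 weeks had the opposite direction when levels were averaged over cells (log2 0.45).

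The 2 MMPs known from neutrophil granules were found in neutrophil-like cells. Mmp8, the neutrophil collagenase at the end of the chromosome 9 run, was at 1057 CPM (748 to 1451) in 21 neutrophil-like cells of the 3 libraries, from 38 UMIs in 7 cells of which the highest 2 held 25, and at 592 CPM (315 to 1012) without the healthy library. No Mmp8 UMI was seen in 1006 macrophage-like cells, where 3 UMIs would have given 1.10 CPM. Mmp9, which encodes gelatinase B, was at 974 CPM (678 to 1354) in neutrophil-like cells, from 35 UMIs in 14 cells, and at 17.3 CPM (12.7 to 23.0) in macrophage-like cells, where it was 57.4 CPM without the healthy library and 10.4 CPM without the heart failure library. In the whole class Mmp9 was 7.25-fold higher (4.51 to 11.6) and Mmp8 3.87-fold higher (1.82 to 7.85) at 12 weeks, when neutrophil-like cells were 7.27% of blood cells against 0.320% at 0 weeks. Of the 38 Mmp9 UMIs at 12 weeks, 20 were in macrophage-like cells, 17 of these in 2 cells.

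**Figure D4:**
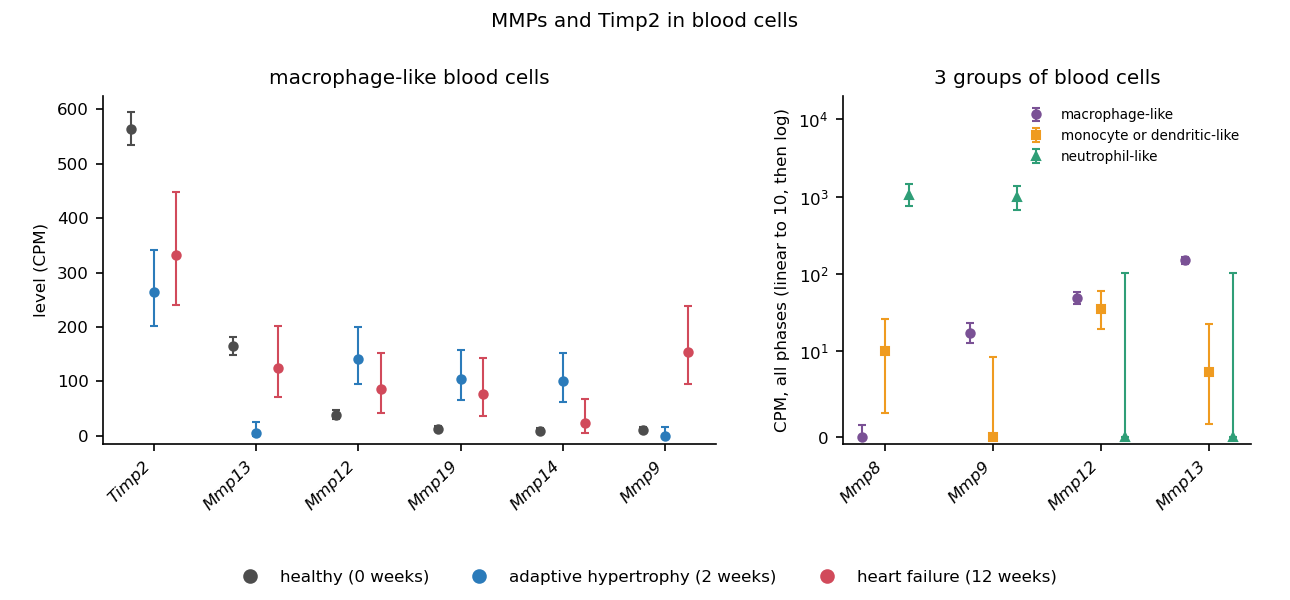
Left, level (CPM) of Timp2 and 5 MMP genes in macrophage-like blood cells at 0, 2 and 12 weeks of TAC, and right, level of Mmp8, Mmp9, Mmp12 and Mmp13 over all phases in 3 groups of blood cells (axis linear to 10 CPM, then logarithmic), with 95% counting intervals. Mmp13 is at 165 CPM at 0 weeks and 4.57 CPM at 2 weeks, while Mmp12, Mmp19 and Mmp14 stand at 100 to 142 CPM, and Mmp8 and Mmp9 are near 1000 CPM in neutrophil-like cells.

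Finally, inhibitor RNA was set against protease RNA within each class. In ECs there were 9.18 (8.22 to 10.3), 9.07 and 10.0 TIMP UMIs per MMP UMI at 0, 2 and 12 weeks. FBs had 1.73 (1.67 to 1.79), 2.47 (2.17 to 2.83) and 1.85 (1.69 to 2.03) in the same order of phases. In blood cells it was 2.21 (2.02 to 2.43), 0.776 (0.575 to 1.04) and 0.710 (0.522 to 0.962), so that TIMP UMIs outnumbered MMP UMIs in healthy blood cells alone. Macrophage-like cells were 89.0%, 58.3% and 36.4% of blood cells. Over the 3 libraries they held 529 CPM of Timp2, against 66.1 CPM in monocyte- or dendritic-like cells. The ratio was not taken within these groups, and the part of the makeup of the class in it was not tested. Mural cells had 6.74, 6.73 and 4.17 with overlapping intervals. The FB change at 2 weeks came with a TIMP sum of 2110 and 2923 CPM and an MMP sum of 1219 and 1181 CPM, and the blood change with a TIMP sum of 538, 205 and 209 CPM and an MMP sum of 243, 264 and 295 CPM. A sum over genes weighs abundant transcripts most, and UMIs say nothing of protein or of enzyme activity. Of the 36 genes, 2 overlap a protein-coding gene on the same strand (Timp2 and Adamtsl1) and 9 one on the opposite strand, among them Timp1, Timp3 and Timp4, and reads of overlapping genes could not be checked here.

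**Figure D5:**
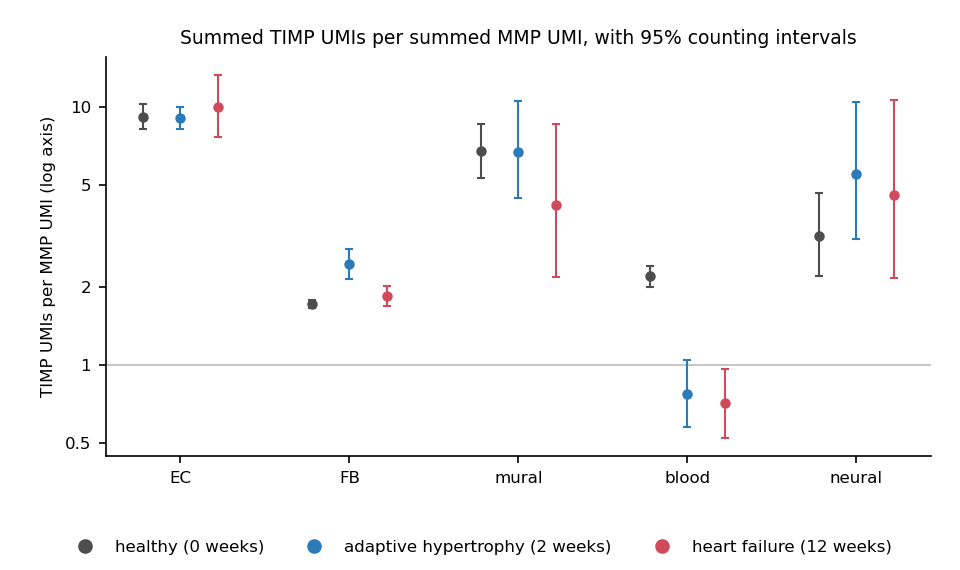
Number of TIMP UMIs (4 genes) per MMP UMI (13 genes) in each cell class at 0, 2 and 12 weeks of TAC, on a log axis, with 95% counting intervals. ECs stay near 9 to 10, FBs are at 1.73 in the healthy library and 2.47 at 2 weeks, and blood cells at 2.21, 0.776 and 0.710.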

How the data were processed

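Single-cell RNA-sequencing of mouse heart non-CMs was analysed from 3 deposited matrices, 1 per phase. The authors made 10x Chromium 3′ libraries and processed the reads with Cell Ranger 2.0.0 on mm10, as the submitters' processing notes name them. The deposited values are raw UMI counts per gene and cell, without normalization. Overlapping genes were taken as the authors counted them.

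Cells with at least 200 genes were kept. A cell was assigned to the class whose marker list had the highest mean of ln(1 + UMIs per 10000), given at least 3 marker UMIs from 2 markers and a score at least 2 times the next. Other cells stayed unassigned, which also removes mixed barcodes, and no doublet caller was run. Groups within a class were set by the highest mean of their markers with at least 2 UMIs. The members, marker lists and pathway lists were chosen with earlier results of these data known.

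Class contrasts were computed with edgeR 4.0.16 (quasi-likelihood test, filterByExpr, TMM) in R 4.3.3 on 15 sums, with class and library as terms. In counts simulated from the real totals with a 4-fold change in FBs, 97.4% of 193 changed genes were recovered with 4 false calls among 6807 genes. Changes near the 2-fold limit and changes in the other classes were not simulated. Phases were compared by CPM with exact Poisson and conditional binomial 95% intervals, without a test. Python 3.11.15 with numpy 2.4.6, scipy 1.17.1, pandas 2.3.3 and matplotlib 3.10.9 was used. DESeq2 1.42.0 served as an alternative. PCR duplicates are removed by UMIs, and intervals do not cover differences between hearts.

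The text names all Timp genes, members with at least 100 UMIs, members at least 2-fold different between phases and, per pathway list, at most 4 genes at least 2-fold different in FBs or ECs. Names outside this rule (the other members with few UMIs, Mmp1b, Mmp10 and Mmp28) were added after the values were seen. Group levels were compared within EC, FB, mural and blood cells. Alternatives changed the gate, the cells kept, the depth, the level and the test, and group levels without each library were added after the data were seen. The values of 1 gene of the pathway lists are not reported here.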

Additional observations from a re-analysis of the deposited data

Results flagged for a closer look

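Mmp14 differed in direction between classes at 2 weeks over 0 weeks. Blood cells had a ratio of 6.67 (3.57 to 12.4, 23 UMIs at each phase), while ECs had a ratio of 0.708 (0.522 to 0.957, 105 and 79 UMIs). The 1 library of each phase put Mmp14 higher in blood cells and lower in ECs with neither interval reaching 1. The difference between the classes was not tested.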

How the results depend on the processing

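Each of the 13 counts was recomputed under the alternatives, 142 values in all, of which 115 stayed within 1.5 times the count first given. For ECs at 2 weeks (1 gene), the count was 2 with cells of at most 10% mitochondrial UMIs and with a gate margin of 3, 4 with a margin of 1.2, 3 with the markers named in the study's methods, with the mean over cells and without cells holding UMIs of at least 2 cardiomyocyte markers (an alternative chosen after seeing the data), and 0 with a minimum of 50 UMIs. For FBs at 12 weeks (4) it was 2 in thinned cells, 7 with the study's markers and 2 with the mean over cells, and for FBs at 2 weeks (6) it was 3 with the study's markers. For blood cells it was 3 in thinned cells at 2 weeks (7), and 3 in thinned cells and with a minimum of 50 UMIs at 12 weeks (6). For mural cells at 2 weeks (2) it was 0 in thinned cells and with a minimum of 50 UMIs, and 1 with a margin of 3 and with the mean over cells. In class contrasts, ECs (6) had 3 with the study's markers. Blood cells (1) had 0 by DESeq2 and 5 without the filter on low counts, mural cells (5) had 8 without that filter, and neural cells (4) had 8 with a margin of 1.2 and 2 with the study's markers. Leaving out each library gave 5 to 6 in ECs, 12 to 17 in FBs, 4 to 7 in mural cells, 0 to 2 in blood cells and 2 to 4 in neural cells. The causes were not tested. The study's markers could not be run for blood cells, since 1 of them is not used here. In FBs at 2 weeks, with 99 cells, Timp1 fell below 2-fold in thinned cells and with the study's markers. Class contrasts had the library as a term, and without it 6 genes were called in ECs, 13 in FBs, 5 in mural cells, 1 in blood cells and 4 in neural cells. For phases no paired analysis was possible because each is 1 library.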

Other observations

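The 537 cells that stayed unassigned held members of several classes at once. Over the 351 such cells of the healthy library, Timp3 was at 1204 CPM and Adamts1 at 1036 CPM, close to the highest class levels of 1247 CPM (neural cells) and 1032 CPM (mural cells). Timp2 was at 285 CPM and Mmp2 at 91.8 CPM there, below the FB levels of 1194 and 819 CPM. In the same cells Adamts9 was at 160 CPM and Adamts4 at 161 CPM, and Timp1 at 11.3 CPM. These values belong to no class and entered no comparison.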
